A study of Homo sapiens with 22 samples.

Results

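The regions described here were bound by the D538G mutant of estrogen receptor alpha (ESR1) under both treatments of the study and had no peak in any wild-type library. Overlapping peaks of 20 libraries (1 bp of overlap was enough) were joined on chromosomes 1 to 22 and X, giving 93599 regions. A region was selected on peaks in at least 2 of 6 D538G libraries treated with DMSO, in at least 2 of 6 D538G libraries treated with estradiol (E2) and in none of 8 wild-type libraries. The rule was met by 1025 regions, which were 1.10% of all regions and 5.77% of the 17770 regions that met its D538G conditions. Because these counts chose the regions, the absence of wild-type peaks and the presence of D538G peaks are given below as a description, with no test between genotypes.

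ESR1 is a nuclear receptor that binds DNA at estrogen response elements, often far from the start of a gene. Estradiol held in its ligand-binding domain moves helix 12 into the position that recruits coactivators. D538G replaces an aspartate at the start of helix 12 with glycine and is known from hormone-resistant breast cancer as a change that lets the receptor act with little or no estradiol. It is also found in endometrial cancers.

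The cells were clones of Ishikawa, a human endometrial adenocarcinoma line, in which ESR1 carried a FLAG tag in every group, and binding was read by ChIP-seq with an antibody against the tag. The wild-type ESR1 groups held 2 clones with 2 replicates each, giving 4 libraries treated with 10 nM E2 and 4 treated with 0.1% DMSO, the solvent. The D538G ESR1 groups held 3 clones with 2 replicates each, giving 6 libraries with 10 nM E2 and 6 with 0.1% DMSO. Treatment lasted 1 h in all 20 libraries and followed at least 5 days of hormone deprivation in phenol-red-free medium and charcoal-stripped serum. Each clone stands for 1 isolated line, and nothing says that the 2 replicates of a clone came from separate cultures, so the spread between them may be technical. Read depth was not given in the sources used here.

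The number of peaks in a list, which limits how many regions it can mark, ranged from 45 to 54903. The wild-type DMSO lists held 51, 29118, 45 and 1080 peaks, and the wild-type E2 lists held between 5757 and 35344. In the D538G groups 3 lists stood apart by length, with 50382 peaks for clone 1 DMSO replicate 2, 54903 for clone 2 DMSO replicate 2 and 49223 for clone 3 E2 replicate 2. The peak names in 1 of 20 lists went against the label. The library labelled D538G clone 2 E2 replicate 1 has peak names that contain the letters Ctl. Without that library 862 regions met the rule, and with it counted as a DMSO library 1041 did.

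All 12 D538G lists contributed to the 1025 regions, but very unequally. Under DMSO the lists of clone 1 marked 383 regions in replicate 1 and 1008 in replicate 2. Those of clone 2 marked 131 and 582, and those of clone 3 marked 493 and 20. Clone 1 DMSO replicate 2 alone had a peak in 98.3% of the regions, and clone 3 DMSO replicate 2, with 1621 peaks in all, in 1.95%. Under E2 the lists of clone 1 marked 527 and 216 regions in replicates 1 and 2, those of clone 2 marked 683 and 18, and those of clone 3 marked 859 and 810. The mean was 436 ± 352 regions (SD, n = 6) under DMSO and 519 ± 338 (SD, n = 6) under E2, and the counts under the 2 treatments overlapped. The list with fewest regions in each group, at 20 and 18, was also the shortest of its group.

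**Figure D1:**
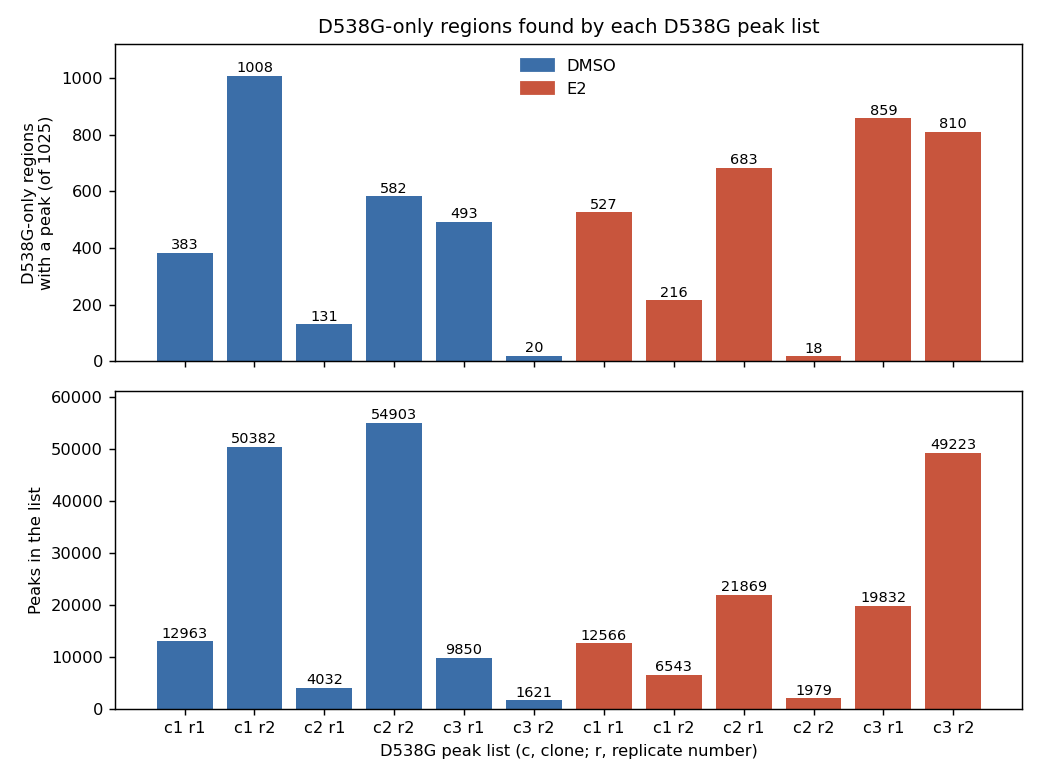
The upper bars give the number of the 1025 D538G-only regions with a peak in each of the 12 D538G lists, and the lower bars give the number of peaks in that list, by clone (c) and replicate number (r), with DMSO in blue and E2 in red. Clone 1 DMSO replicate 2 marked 1008 regions, while clone 3 DMSO replicate 2 and clone 2 E2 replicate 2 marked 20 and 18.

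The number of regions rested on 2 single lists. Without D538G clone 1 DMSO replicate 2, 402 regions met the rule when regions were built again, and without wild-type clone 1 E2 replicate 2, 1623 did. Without the 4 longest D538G lists 211 regions met it. Of the 1025 regions, 103 (10.0%) had peaks in those 4 lists only. The corresponding share was 8.36% of the 4055 regions that D538G bound under both treatments and wild type bound only with E2. It was 24.5% of the 12690 regions that D538G bound under both treatments and wild type bound with DMSO. These 2 sets, called here the E2-shared and the DMSO-shared regions, met the same D538G conditions and serve as the comparison below. Differences between the 3 sets are descriptions over regions of the same libraries, with no test. The DMSO-shared set leaned on 1 wild-type library, because 99.4% of it had a peak in clone 1 DMSO replicate 2. Of the E2-shared set, 94.4% had a peak in wild-type clone 1 E2 replicate 2 and 81.3% in wild-type clone 2 E2 replicate 2. The replicate 1 E2 lists of wild-type clones 1 and 2 marked 54.2% and 41.8% of it.

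Most D538G-only regions were seen in few libraries. Of the 1025, 313 had peaks in exactly 4 lists, the fewest the rule admits, 279 in 5, 184 in 6 and 118 in 7. Only 131 regions (12.8%) reached 8 or more lists, against 41.4% of the E2-shared and 22.1% of the DMSO-shared regions. The shared sets needed a wild-type peak and the D538G-only regions needed none, so part of this difference may be set by the choice of sets. A single region was called in 11 lists and 4 regions in all 12. Raising the rule to at least 3 of 6 lists under each treatment left 335 regions.

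**Figure D2:**
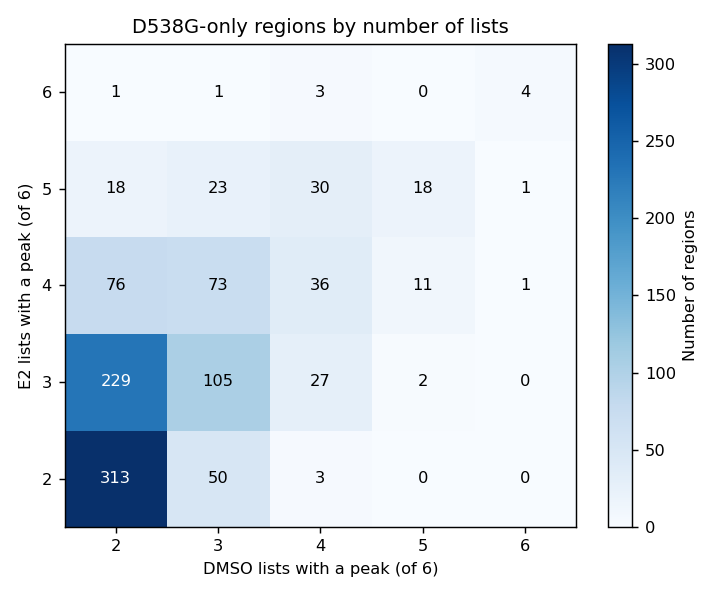
Each cell gives the number of D538G-only regions with a peak in the stated number of DMSO lists (horizontal axis) and E2 lists (vertical axis), each out of 6. The corner at 2 and 2 holds 313 of the 1025 regions, and 4 regions had peaks in all 12 lists.

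As labelled, peaks in these regions were more often called with E2 than with DMSO, but this did not hold without the pair of libraries whose label is in doubt. More E2 than DMSO lists marked 454 regions (44.3%), fewer marked 95 (9.27%), and equal numbers marked 476. Without the replicate 1 pair of clone 2 the balance turned, with 252 regions marked by more E2 lists and 327 by fewer. With its E2 library counted as DMSO, the share of lists was larger under E2 in 508 regions and under DMSO in 513. Both counts keep all 1025 regions, although 834 met the rule without the pair. Other pairs were uneven too. Clone 3 replicate 2 marked 20 regions under DMSO and 810 under E2. In the other direction, clone 1 replicate 2 marked 1008 and 216, and clone 2 replicate 2 marked 582 and 18. The balance without any of these pairs was not computed. With the labels as given, 50.6% of the E2-shared regions had more E2 lists and 8.95% fewer, whereas among the DMSO-shared regions 13.3% had more E2 lists and 42.7% fewer. In the test of each region, E2 against DMSO in D538G, none of the 1025 regions passed an adjusted p of 0.05 by Fisher's exact test, and 0% of the 44916 regions tested did. No member could reach an unadjusted p of 0.05 either. The widest split that the rule admits, 2 of 6 against 6 of 6 lists, gives 0.0606 by Fisher's exact test. Without either DMSO list of clone 1, 1 member passed unadjusted. Across all regions 9 passed unadjusted, each with more E2 lists. The rule itself fixed the outcome for the members with all 12 lists, since at least 2 lists of each treatment are required in every member. Nothing is read from it.

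The members at the lower limit of the rule depended on few pairs of lists. Of the 637 regions with exactly 2 DMSO lists, 306 had the replicate 2 lists of clones 1 and 2, and 181 had clone 1 replicate 2 with clone 3 replicate 1. Both replicates of clone 1 made up 114 more. Of the 366 regions with exactly 2 E2 lists, 128 had clone 2 replicate 1 with clone 3 replicate 2, and 119 had both replicates of clone 3.

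Many regions lay just outside the rule. The 313 regions with 2 lists under each treatment were 557 bp wide in the median, and the strongest D538G peak in each had a median −log10 p of 73.3. Another 1136 regions had enough DMSO lists but only 1 E2 list, with medians of 546 bp and 28.0. A further 1197 had enough E2 lists but only 1 DMSO list, with medians of 476 bp and 70.8. The medians of −log10 p do not compare strength. They were taken over a median of 3 D538G lists outside the rule and 4 inside it, and −log10 p differs in scale between lists. In the D538G-only regions its median was 104 in clone 1 DMSO replicate 2 and 26.2 in the next highest DMSO list. A peak in exactly 1 wild-type list kept out 902 regions, and 596 of those lone peaks belonged to wild-type clone 1 E2 replicate 2. A lone wild-type peak lay at a median of the 27.3rd percentile of its list, and its median −log10 p was 28.1.

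In strength the D538G-only peaks ranked below those of the shared regions. The rank used is the percentile of the peak's signal value within its own list, since the values of different lists cannot be set side by side. Where a list had several peaks in 1 region, the strongest was used, which can raise the percentile of wider regions. The shared regions were wider, as given below. The median percentile of the D538G-only regions ran from 37.6 in clone 2 DMSO replicate 1 to 78.0 in clone 1 DMSO replicate 2. It was lower than that of the E2-shared and of the DMSO-shared regions in 12 of 12 D538G lists. Those lists score the same chosen sets, so they are no repeated support. Part of the gap may be set by the rule, since a weak site is likelier to lack a wild-type peak, and that part was not tested. In clone 1 E2 replicate 1, for example, the medians were 46.0, 74.8 and 62.8. The gap was small in clone 1 DMSO replicate 2, with 78.0, 79.1 and 79.3.

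The D538G-only regions were also called less often than the E2-shared regions in 10 of the 12 lists. As with the number of lists, part of this may be set by the choice of sets. The largest shortfall was in clone 2 DMSO replicate 1, which marked 12.8% of the D538G-only and 41.9% of the E2-shared regions. Against the DMSO-shared regions the direction differed between lists. Clone 3 E2 replicate 1 marked 83.8% of the D538G-only and 41.7% of the DMSO-shared regions, whereas clone 2 DMSO replicate 2 marked 56.8% and 97.5%.

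**Figure D3:**
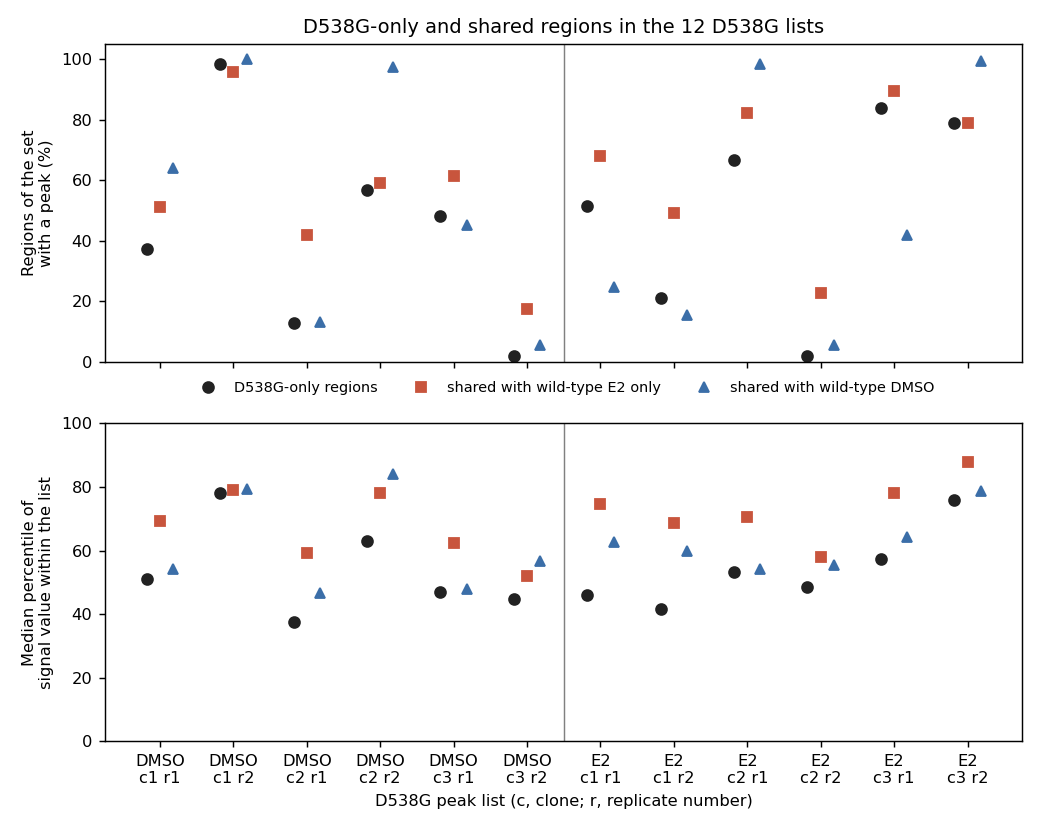
The upper panel gives the percent of each set of regions with a peak in each D538G list, and the lower panel the median within-list percentile of signal value, for D538G-only (black circles), E2-shared (red squares) and DMSO-shared regions (blue triangles). The black circles are the lowest of the 3 in the lower panel in all 12 lists, from 37.6 to 78.0.

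D538G-only regions were narrower than the shared regions, and their summits lay close together. Their median width was 636 bp, against 794 bp for the E2-shared and 1077 bp for the DMSO-shared regions. Part of this difference is set by the rule. Shared regions also join wild-type peaks, and a wider region is likelier to meet one. The summits that the D538G lists placed in 1 region spread over a median of 120 bp, near the 111 bp of the E2-shared regions and below the 216 bp of the DMSO-shared regions. Summits lay within 200 bp of each other in 72.8%, 72.9% and 47.4% of the 3 sets. A region marked by more lists can hold a wider spread. In regions with 6 lists the medians were 120, 111 and 276 bp, and in those with 8 lists 138, 110 and 137 bp, so the difference from the DMSO-shared regions was not seen at 8 lists.

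The clones did not share the regions evenly. All 3 D538G clones had a peak in 797 regions (77.8%), clones 1 and 3 alone in 202, clones 1 and 2 alone in 11, clones 2 and 3 alone in 4, and clone 1 alone in 11. Clone 2 had no peak in 213 regions (20.8%), clone 3 in 22 and clone 1 in 4. By comparison, all 3 clones marked 92.6% of the E2-shared and 99.6% of the DMSO-shared regions. Peaks in all 3 clones under both treatments were found in 129 regions (12.6%). The shortest D538G E2 list, with 1979 peaks, belongs to clone 2, but so does the longest D538G list, with 54903. The shortest D538G list of all, with 1621 peaks, belongs to clone 3. The part of list length in these counts was not tested.

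When each clone was tested against the other 2, no region passed an adjusted p of 0.05 by Fisher's exact test, and 0% of the 44916 regions tested were called in each of the 3 comparisons. At an unadjusted p under 0.05, 23 of the 1025 regions were marked more often by clone 1, where 82 of all regions tested (0.183%) were. Nothing is read from that difference, because members have at least 4 lists by rule while the regions tested include many with 2, which cannot reach this level. Under the same D538G conditions, 6 E2-shared regions and 1 DMSO-shared region were marked more often by clone 1. In 11 of those 23, all 4 clone 1 lists and none of the other 8 had a peak. Such a region meets the D538G conditions of the rule by construction. Examples, chosen after their values were seen, are chr2:5614955-5615730, chr11:64423477-64424331 and chr20:45399766-45400618. The count rose to 53 without clone 3 E2 replicate 1 and to 39 without clone 1 E2 replicate 2.

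For clone 2 the unadjusted calls among members ran the other way, at a share near that of the E2-shared regions. At an unadjusted p under 0.05, 6 regions were marked less often by clone 2, where 34 of all tested (0.0757%) were, and each had 7 of 8 lists of the other clones. That was 0.585% of the members, near the 0.518% (21 regions) of the E2-shared set. Nothing is read from the lower share over all regions tested, because many of those have too few lists to reach this level. They included chr7:36330905-36331903 and chr9:124291660-124292368, chosen after their values were seen. Leaving out clone 3 DMSO replicate 2 gave 48, clone 2 E2 replicate 1 gave 19, clone 1 DMSO replicate 1 gave 18, clone 1 E2 replicate 2 gave 13 and clone 3 E2 replicate 2 gave 11. Clone 3 gave 0 members at that level, against 12 regions over all tested. Without clone 1 DMSO replicate 2 or without clone 3 DMSO replicate 2, 34 members were marked more often by clone 3, so these unadjusted counts rest on single libraries.

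Replicate numbers were compared because they may mark separate rounds of work, which the labels do not say. No region passed an adjusted p of 0.05 by Fisher's exact test (0% of 44916). At an unadjusted p under 0.05, 2 of the 1025 regions were marked less often in replicate 2, as were 29 of all tested (0.0646%). Of those 29, 26 were E2-shared regions, 0.641% of that set, against 0.195% of the members. Leaving out 1 library gave 2 to 9 members, with 9 without clone 1 DMSO replicate 2, 7 without clone 1 E2 replicate 2 and 6 without clone 2 DMSO replicate 1. It gave 5 without clone 1 DMSO replicate 1, 4 without clone 3 DMSO replicate 1 and 3 without clone 3 E2 replicate 2. With 12 lists the smallest p that any region could reach was 0.00216 in the comparisons of 6 with 6 lists and 0.00202 in those of 4 with 8. For adjustment to pass, 1945 or 1815 regions at that smallest p would have been needed, so the adjusted tests could not call isolated regions.

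The 12 regions described next were chosen by their number of lists and then by mean percentile, so their high percentiles follow from the choice. Of 22 regions with 10 lists, the 7 with the highest mean percentile are included, and the mean percentile of the 22 ran from 46.5 to 75.1. The first, chr9:138270156-138273124, had a peak in all 12 D538G lists. Under DMSO its percentiles ran from 88.1 through a median of 99.7 to 99.9, and under E2 they rose from 81.1 with a median of 99.1. Its lowest value in each group came from a clone 2 list, and the groups overlapped. The highest −log10 p of any member, 851, was also its own, in clone 3 E2 replicate 2.

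On chromosome 2, chr2:134250266-134251284 had all 12 lists too, with percentiles from 62.7 to 97.0 (median 81.1) under DMSO and from 47.5 to 99.6 (median 96.3) under E2. Its low values came from clone 2 DMSO replicate 2 and clone 3 E2 replicate 2, which are among the longest lists. The groups overlapped. A neighbour, chr2:134339896-134341023, had 10 lists and lacked a peak in exactly those 2 long lists. The nearest wild-type peak was 626 kb from the first and 536 kb from the second.

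The region chr2:11628036-11629902 was also called in all 12 lists, with median percentiles of 87.1 under DMSO and 92.8 under E2. Its lowest percentile, 0.310, came from clone 2 DMSO replicate 1, so in that list it was close to the weakest peak. The region chr9:101639234-101640142 completed the 4 with all lists, with medians of 87.9 and 90.0 and lows of 6.72 in clone 3 DMSO replicate 2 and 15.9 in clone 2 E2 replicate 2. In both regions the low values came from short lists.

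Region chr5:67829596-67830722 had 11 lists and lacked only clone 2 E2 replicate 2. Its percentiles ran from 62.3 to 98.6 (median 92.0) under DMSO and from 80.4 to 99.2 (median 95.7) under E2. Another 5 regions were marked by 10 lists and lacked the shortest list of each group. They were chr15:33191215-33191929, chr10:7593463-7594810, chr18:10406009-10406769, chr8:141248111-141249236 and chr5:31671290-31672101. Their median percentiles were between 85.7 and 97.1 under DMSO and between 87.3 and 97.0 under E2. The region ranked just above that neighbour on chromosome 2, chr2:35522302-35523114, lacked clone 2 DMSO replicate 2 and clone 3 E2 replicate 2, as chr2:134339896-134341023 did, and lay 494 kb from a wild-type peak.

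**Figure D4:**
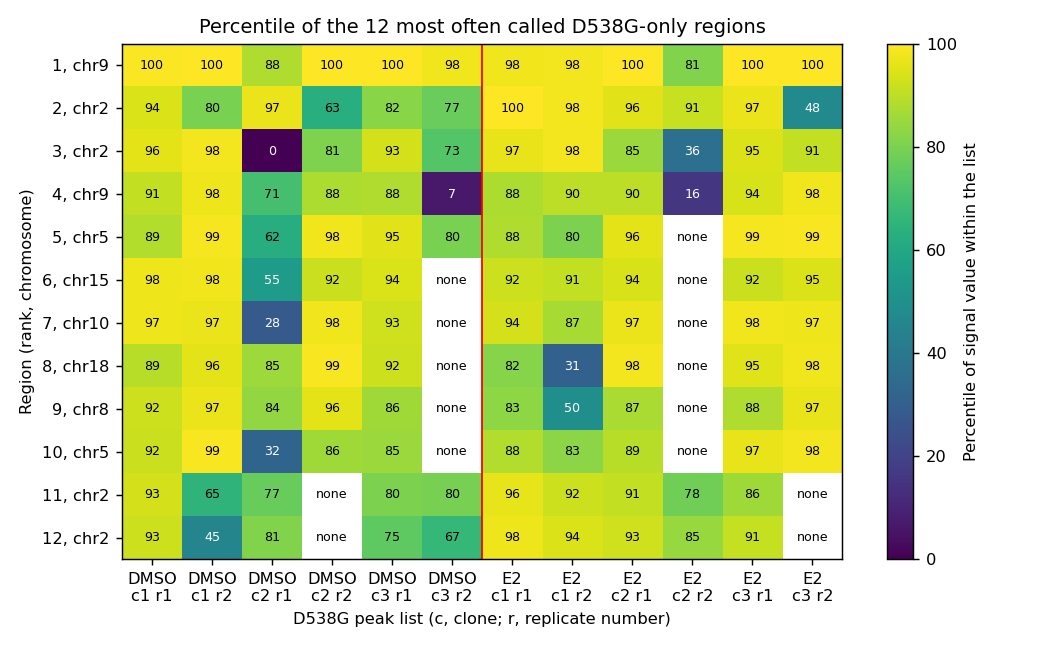
Each cell gives the percentile of signal value of 1 of the 12 most often called D538G-only regions (rows, by rank and chromosome) in 1 D538G list (columns, by treatment, clone c and replicate number r), and white cells hold no peak. Rows 11 and 12, both on chromosome 2, lack a peak in 2 of the longest lists, and rows 6 to 10 lack one in the 2 shortest lists.

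Of the regions at the lower limit of the rule, with 2 lists per treatment, the 3 with the highest mean percentile were chr11:44007792-44008444, chr7:130575172-130575663 and chr9:101739478-101739969. In the lists that marked the first, its percentiles were 77.3 and 87.0 under DMSO and 96.0 and 98.2 under E2. It had no peak in clone 2. Over all 1025 regions the mean percentile, counting an absent peak as 0, had a median of 23.4 and ranged from 3.01 to 96.9.

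D538G-only regions lay farther from wild-type binding than the shared regions lay from other wild-type peaks. The median distance to the nearest wild-type peak was 10160 bp, against 4648 bp for the E2-shared and 5620 bp for the DMSO-shared regions, not counting the peak inside the region itself. A wild-type peak within 1000 bp was found for 90 D538G-only regions (8.78%), and none within 100 kb for 116 (11.3%). The farthest was chr2:5614955-5615730, at 1389 kb and marked by 4 lists. Requiring no wild-type peak within 1000 bp left 935 regions. The rule excludes any wild-type peak inside a member, so part of this distance is set by the choice of regions.

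Some D538G-only regions stood close together. With neighbours joined at up to 50 kb, the 1025 regions formed 833 runs, of which 706 were single regions, 95 were pairs and 32 held 3 or more. The longest run had 12 regions in 57.0 kb at chr9:138245175-138302199 and included the strongest member of all. Its 12 regions had peaks in 4 to 12 lists (median 6), and each was marked by all 3 clones. Among the D538G lists the number of its regions marked ran from 1 in clone 2 E2 replicate 2 to 12 in clone 1 DMSO replicate 2, clone 2 DMSO replicate 2 and clone 3 E2 replicate 2. The shortest lists again marked fewest.

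Of the other 15 regions merged inside that run, 2 had wild-type peaks. One, chr9:138283110-138286486, was marked by 12 D538G and 6 wild-type lists, so the run surrounded a site bound in both genotypes. The other, chr9:138257968-138259001, was marked by 11 D538G lists and by wild-type clone 1 E2 replicate 2 alone. The remaining 13 had no wild-type peak and 1 to 3 D538G lists, too few for the rule. On chromosome 17, 7 regions formed a run at chr17:71257992-71360516 and 6 another at chr17:71554912-71638391. All 3 clones marked each of those 13 regions.

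By chromosome, the D538G-only share of the regions that D538G bound under both treatments was highest on chromosome 10. There 96 of 953 such regions were D538G-only, which is 10.1% with a 95% exact binomial interval of 8.24 to 12.2%, against 5.77% over all chromosomes. The interval treats neighbouring regions as independent and covers counting error only. It makes no allowance for the choice of chromosome 10 as the highest. Chromosomes 9 (8.31%), 20 (8.30%) and 21 (8.10%) followed, and chromosomes 13 (2.95%) and 19 (3.41%) were lowest. The intervals of chromosomes 9 (6.58 to 10.3%), 20 (6.05 to 11.1%) and 17 (5.81 to 8.90%) also lay above 5.77%. Those of chromosomes 3, 4, 12, 13, 16 and 19 lay below it. Chromosome 10 held 9.37% of the D538G-only regions, 5.38% of the E2-shared and 5.04% of the DMSO-shared regions.

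Each list marks a part of the same chosen regions, so the shares per list are no repeated support. In the 10 lists with 100 or more of the regions, between 8.33 and 11.0% of the D538G-only regions with a peak lay there, against 5.06 to 5.72% of the E2-shared regions. The 2 shortest lists, with 20 and 18 regions, had 1 and 0 on chromosome 10. All peaks of the D538G lists were also somewhat more frequent there, at 4.93 to 6.30% of each list, against 4 to 5% in the wild-type lists. DNA copy number was not measured in the files used, and the part of this difference in the result was not tested. When only the 5000 strongest peaks of every list were used, the share on chromosome 10 was 6.63% of 800 regions, and with replicate 1 lists alone it was 5.74%, so it depended on those settings.

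**Figure D5:**
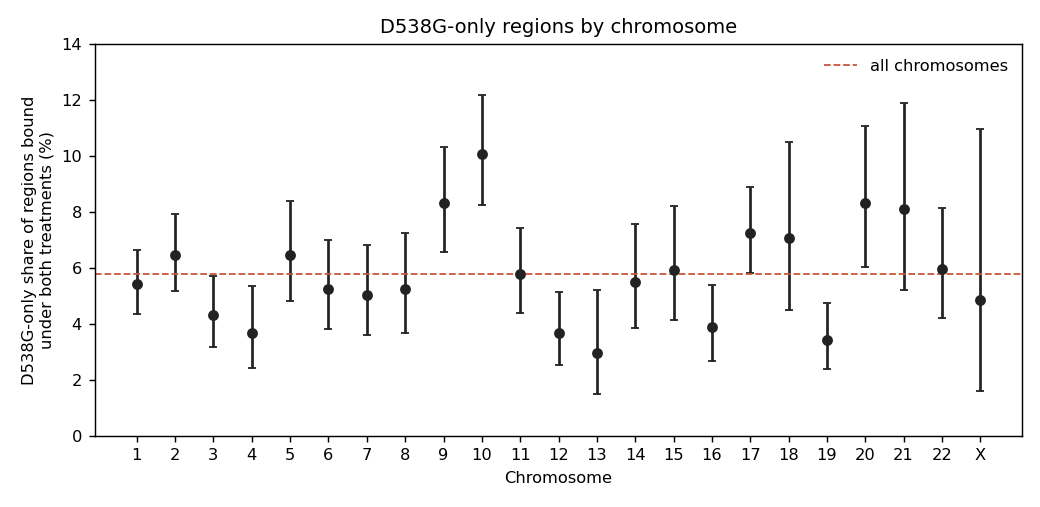
Points give, for each chromosome, the percent of regions bound by D538G under both treatments that had no wild-type peak, with 95% exact binomial intervals, and the dashed line gives the share over all chromosomes. Chromosome 10, at 10.1%, is the highest, and its interval of 8.24 to 12.2% lies above the line at 5.77%. The intervals of chromosomes 9, 17 and 20 also lie above the line, and those of chromosomes 3, 4, 12, 13, 16 and 19 lie below it.

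Within chromosomes most of the regions were scattered, and the 5 windows of 5 Mb with most of them held 89 (8.68%). Among them, chromosome 17 from 70 to 75 Mb and chromosome 9 from 135 to 140 Mb each held 25 D538G-only regions, out of 154 and 191 regions that D538G bound under both treatments. Chromosome 2 from 235 to 240 Mb held 14 of 73, and chromosome 11 from 115 to 120 Mb held 13 of 52. These windows also contained wild-type binding, with between 109 and 426 regions marked by a wild-type list. Over the genome, at least 1 D538G-only region lay in 343 of 595 windows.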

How the data were processed

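The 20 precipitated libraries were analysed from 1 deposited narrowPeak list each, so peaks were called per library and not on pooled replicates, and 2 input libraries were not used here. The submitters' processing notes name Bowtie, MACS2 and the build hg19. The signal value deposited for each peak served to order peaks inside their own list, because what it is relative to is not given in the sources used here. The authors' deposited −log10 p was above 10 in every peak and served for a stricter threshold, and the deposited score was not used. Peak names contain Input in 4 lists only, so the control used for the others is unknown. Coordinates are 1-based hg19. No hg19 genome or annotation was at hand, so planned counts of motifs, of transcription starts and of named target genes were not run and no sequence or gene is given.

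Of 356472 peaks, 356437 on chromosomes 1 to 22 and X were joined at 1 bp of overlap into 93599 regions, identical to those of bedtools 2.31.1. The largest Jaccard index between 2 lists was 0.714, so no list was counted as a copy of another. Tests per region used Fisher's exact test, two-sided (scipy 1.17.1), on regions marked by 2 or more of the 12 D538G lists, with Benjamini-Hochberg adjustment over all of them and a threshold of 0.05. In simulated lists with 200 fully separated regions all 200 passed unadjusted and 0 adjusted in each comparison. The main tests were unpaired. E2 and DMSO libraries of the same clone and replicate number were treated as pairs only in the replicate block, an alternative given below, since they come from the same line. The deviations of paired libraries correlated between -0.353 and 0.324 over 44916 regions, and 2 of 6 pairs exceeded 0.1. Between E2 and DMSO libraries that were not pairs the range was -0.491 to 0.554, so the correlations did not set the pairs apart. Regions named were the 12 with most D538G lists, ties by mean percentile, and the 3 with the highest mean percentile at the lower limit of the rule. The members and rules were chosen with earlier results of these data known.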

Additional observations from a re-analysis of the deposited data

Results flagged for a closer look

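Groups of 6 D538G lists were searched for a list far from the others in 6 measures of the regions, which made 12 combinations of measure and group, and 3 stood out. Chance alone gives about 1 in 20 such groups. The median −log10 p of the D538G-only regions was 104 in clone 1 DMSO replicate 2, far above the next highest DMSO list at 26.2. In clone 3 E2 replicate 1 it was 54.5, and the next highest E2 list had 35.7. The share of all peaks that lay on chromosome 10 was 6.13% in clone 3 E2 replicate 2, and the next highest E2 list had 5.30%.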

How the results depend on the processing

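The number of D538G-only regions stayed within 1.5 times of 1025 in 26 of 32 alternatives. It was 335 with at least 3 of 6 lists per treatment, 8926 with replicate 1 lists alone and 10499 with replicate 2 lists alone, where by construction 1 of 3 D538G lists per treatment sufficed and only 4 wild-type lists could exclude a region. It was 211 without the 4 longest D538G lists, a setting chosen after seeing the data, as were the 2 that leave out or relabel clone 2 replicate 1. Leaving out 1 library gave 402 to 1623 regions. A similar number did not mean the same regions. With the 5000 strongest peaks of each list 800 regions met the rule, but they overlapped only 133 of the 1025. With a −log10 p of at least 20, 782 met it and overlapped 647. The share on chromosome 10 was 6.63% with the 5000 strongest peaks of each list and 5.74% with replicate 1 lists alone, and the cause was not tested. In the other 30 alternatives it stayed within 7.65 to 11.3%, the 95% exact binomial interval of the main 9.37%. The median summit span was 120 bp in the main setting. It ran from 81.5 bp with the 5000 strongest peaks to 132 bp with at least 3 of 6 lists. It moved by less than the SD of the span over regions in 32 of 32. That SD does not measure the error of a median, so nothing is read from this count. Leaving out the clone 2 replicate 1 pair turned the E2 lean of the regions, from 454 with more and 95 with fewer E2 lists to 252 and 327. In the 5 tests per region 0 members passed the adjusted threshold in all 80 alternatives. That agreement is no support, because 200 fully separated regions in simulated lists gave 0 adjusted calls in each main comparison. With the replicate block, which compared E2 with DMSO within pairs, clones within treatment and replicate, and replicates within pairs of clone and treatment, 0 members passed in each test and no call changed. Planned counts of estrogen response elements, forkhead motifs and transcription starts were not run. Unknown read depth limits what an absent peak means: a short list can miss a bound site, and that cannot be told apart from absent binding.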

Other observations

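Along chromosome 10 the D538G-only regions were spread over most of its length. By windows of 10 Mb, 15 of 109 regions that D538G bound under both treatments were D538G-only between 80 and 90 Mb, 15 of 140 between 120 and 130 Mb and 11 of 59 between 40 and 50 Mb. Between 10 and 20 Mb 0 of 30 were, which allows a share of up to 10.0% by the limit of 3 regions, for counting error only.

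Regions far from wild-type binding were seen in more D538G lists than the rest, a pattern noticed in these data and not tested. Among the 116 regions at least 100 kb from any wild-type peak, 22.4% had peaks in 8 or more D538G lists, against 11.6% of the other 909, and the median number of lists was 6 against 5.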
